A study of Mus musculus with 12 samples.

Results

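The genes described here encode the proteasome, its activators, its inhibitor and its assembly chaperones. They were taken as every row of the deposited expression table whose symbol begins with Psm, then a letter from a to g, then a number, which gave 50 of 24781 gene symbols. Of these 50, 40 had levels high enough to be tested and 10 did not. RNA was measured in 12 libraries, each made from 100 invariant natural killer T (iNKT) cells of mice aged 6 weeks. These are T cells with a nearly fixed receptor for lipids shown on CD1d. All cells were sorted as positive for TCRbeta, NK1.1, the CD1d tetramer and CXCR6, and were then divided by CD244. The CD244+ fraction is called the C2 subset and the CD244- fraction the C1 subset, and the study profiled both in thymus and lung. The 4 groups of 3 libraries were thymus CD244+, thymus CD244-, lung CD244+ and lung CD244-. Strain, genotype and sex were not given in the sources used here, and the labels name no drug, stimulus or engineered allele in any group. The replicates are described as separate library preparations with no animals named, so the p-values reflect differences among library preparations and may measure technical spread alone.

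The 26S proteasome is the main protease for ubiquitin-tagged proteins. Its barrel, the 20S core, has outer rings of alpha subunits (Psma genes) and inner rings of beta subunits (Psmb genes), and the beta rings hold the catalytic sites. A 19S cap binds ubiquitin, unfolds the substrate with its ATPases (Psmc genes) and feeds it into the barrel, while the Psmd genes encode the remaining cap subunits and some chaperones. In lymphocytes and in cells exposed to interferon gamma, the catalytic subunits encoded by Psmb5, Psmb6 and Psmb7 are exchanged for those of Psmb8, Psmb9 and Psmb10. The resulting immunoproteasome is known for making peptides for MHC class I.

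Levels are given as molecules per 10000, each library's values having been rescaled to a total of 10000. Each molecule was tagged once at its poly(A) tail, so levels of different genes are compared as molecules, with no weight for gene length. The number of molecules per library was 56615 to 71789 in thymus CD244+, 60120 to 67478 in thymus CD244-, 42520 to 51436 in lung CD244+ and 29696 to 32196 in lung CD244- cells. A single molecule was therefore worth 0.139 to 0.337 per 10000. The median tested proteasome gene had 5, 6, 5 and 3 molecules per library in the same order, so a single gene's fold change is coarse, most of all in lung CD244- cells. Intervals on molecules cover counting error only.

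Markers of other cell types are given first, because lung CD244+ libraries stood apart. The 9 T cell genes (Cd3d, Cd3e, Cd3g, Cd247, Cd2, Cd5, Lck, Thy1, Zbtb16) were detected in every group. Their summed level was 22.4 to 26.5 per 10000 in thymus CD244+, 25.6 to 28.1 in thymus CD244-, 9.17 to 20.5 in lung CD244+ and 24.6 to 31.1 in lung CD244- libraries. The 12 myeloid genes, among them Lyz2, C1qa and Apoe, summed to 65.2 to 129 per 10000 in lung CD244+ libraries, where all 12 had molecules. In the other 9 libraries they summed to 0.748 to 1.55, and 10 or 11 of the 12 were at 0 in each of those groups. The 3 MHC class II genes summed to 31.7 to 73.8 in lung CD244+ libraries and to at most 0.337 elsewhere. Sums of 4 other marker lists (B cell, NK cell, thymic epithelium, erythroid) reached at most 1.18 per 10000 in a library, and lung epithelium at most 3.37, in lung. Replicates also differed more in lung CD244+ (chi-square per degree of freedom of 2.28 to 2.35) than in the other groups (1.14 to 1.46). The part of these other cells in each lung CD244+ result below was not tested. In bulk libraries, fewer cells of a type and less RNA per cell cannot be told apart.

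Proteasome RNA as a whole made up a similar portion of the molecules of each group. The 50 genes together came to 46.0 ± 3.22 per 10000 in thymus CD244+, 47.7 ± 3.99 in thymus CD244-, 47.2 ± 1.93 in lung CD244+ and 51.0 ± 3.83 in lung CD244- cells (SD, n = 3). Single libraries ran from 42.4 to 53.7, and every group's range overlapped every other's. Lung CD244+ libraries, with their high myeloid sum, thus had a proteasome sum of 45.2 to 49.0, inside the range of the rest. The likeness of the tissues holds only after rescaling to a common total. The deposited columns summed to 26890.5 in thymus and 19342.9 in lung. With these unequal totals kept, and all libraries divided by 1 common factor so that 10000 is the mean total, the same sums were 49.4 to 60.4 in thymus and 37.8 to 45.0 in lung, and the tissues did not overlap.

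**Figure D1:**
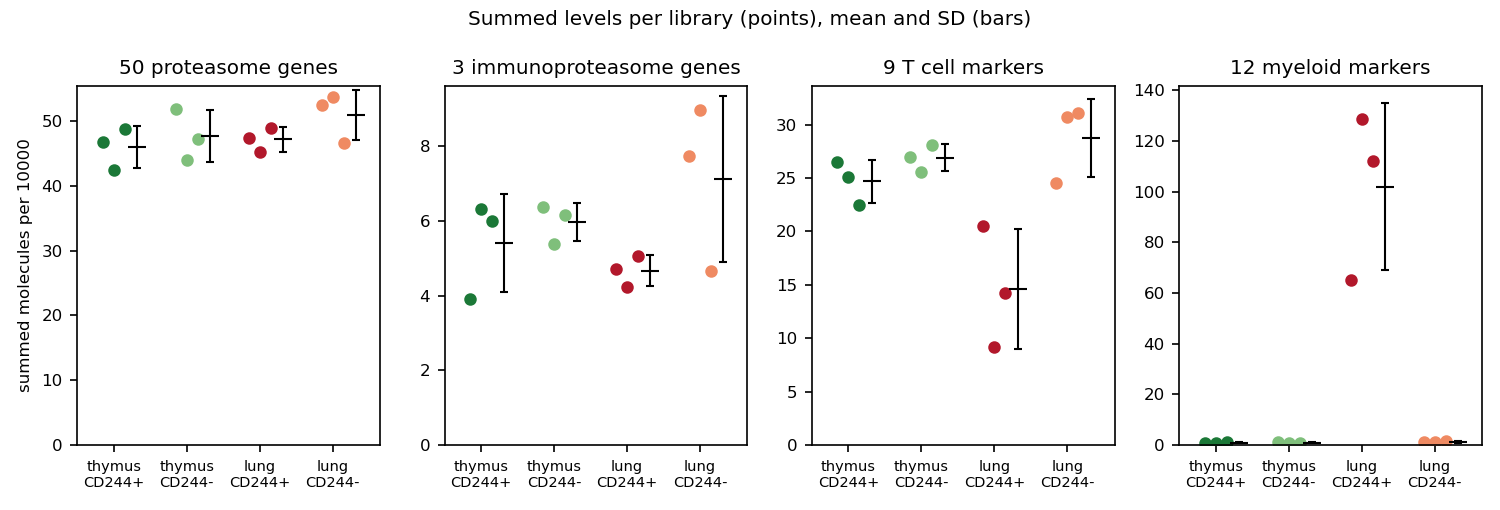
Summed molecules per 10000 in each of the 12 libraries (points, coloured by group) with the group mean and SD (bars), for the 50 proteasome genes, the 3 immunoproteasome genes, the 9 T cell markers and the 12 myeloid markers; each panel has its own vertical axis starting at 0. The proteasome sum lies between 42.4 and 53.7 in every library, while the myeloid sum is 65.2 to 129 in lung CD244+ libraries and at most 1.55 elsewhere.

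Most members were present throughout. Molecules were seen in all 12 libraries for 30 of the 50 genes, and in 7 to 11 libraries for another 17. The barrel and cap subunits other than the tissue-restricted ones were all among the tested genes, while the low members were mostly chaperones. The 10 untested genes were Psma8, Psmb11, Psmc3ip, Psmf1, the 19S assembly chaperone genes Psmd5, Psmd9 and Psmd10, and the 20S assembly chaperone genes Psmg1, Psmg3 and Psmg4. Psma8, which encodes the testis alpha subunit, and Psmb11, which encodes the beta subunit of thymic cortical epithelium, had 0 of 621158 molecules, which allows up to 0.0483 per 10000 (3 molecules). Psmc3ip, which matches the symbol rule but encodes a meiotic recombination factor and no proteasome subunit, had 1 molecule, in thymus CD244- library 1.

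Averaged over the 4 groups, Psmb8 and Psme1 had the most molecules, and both are known as interferon-inducible. Psmb8, the immunoproteasome subunit with chymotrypsin-like activity, had a mean of 3.68 per 10000 over the 4 groups. Psme1, which encodes the alpha chain of the PA28 activator, had 3.56. Next came the structural beta genes Psmb1 at 2.93, Psmb3 at 2.38 and Psmb4 at 1.76. The order differed between groups: in lung CD244+ cells Psmb1 (3.20) and Psme1 (3.07) stood above Psmb8 (2.40). Neighbours in this order differed by less than their spread over libraries: Psme1 ranged from 1.94 to 5.39 and Psmb8 from 1.84 to 6.06.

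Genes whose products are made for the same ring were not equal in molecules. The 7 alpha ring genes spanned 2.02-fold, from Psma5 at 0.836 to Psma2 at 1.69 per 10000, and the 4 structural beta genes spanned 3.69-fold, from Psmb2 at 0.793 to Psmb1 at 2.93. The 6 cap ATPase genes ran from Psmc4 at 0.449 to Psmc1 at 1.25, a span of 2.78-fold. The 11 other cap genes ran from Psmd13 at 0.367 to Psmd4, a ubiquitin receptor, at 1.21, a span of 3.30-fold. The 3 immunoproteasome genes spanned 5.25-fold, from Psmb9 at 0.701 to Psmb8, and the 5 activator genes 6.29-fold, from Psme4 at 0.566 to Psme1. Chaperone genes stood low, between 0.177 for Psmg3 and 0.297 for Psmg2 in the 20S set.

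**Figure D2:**
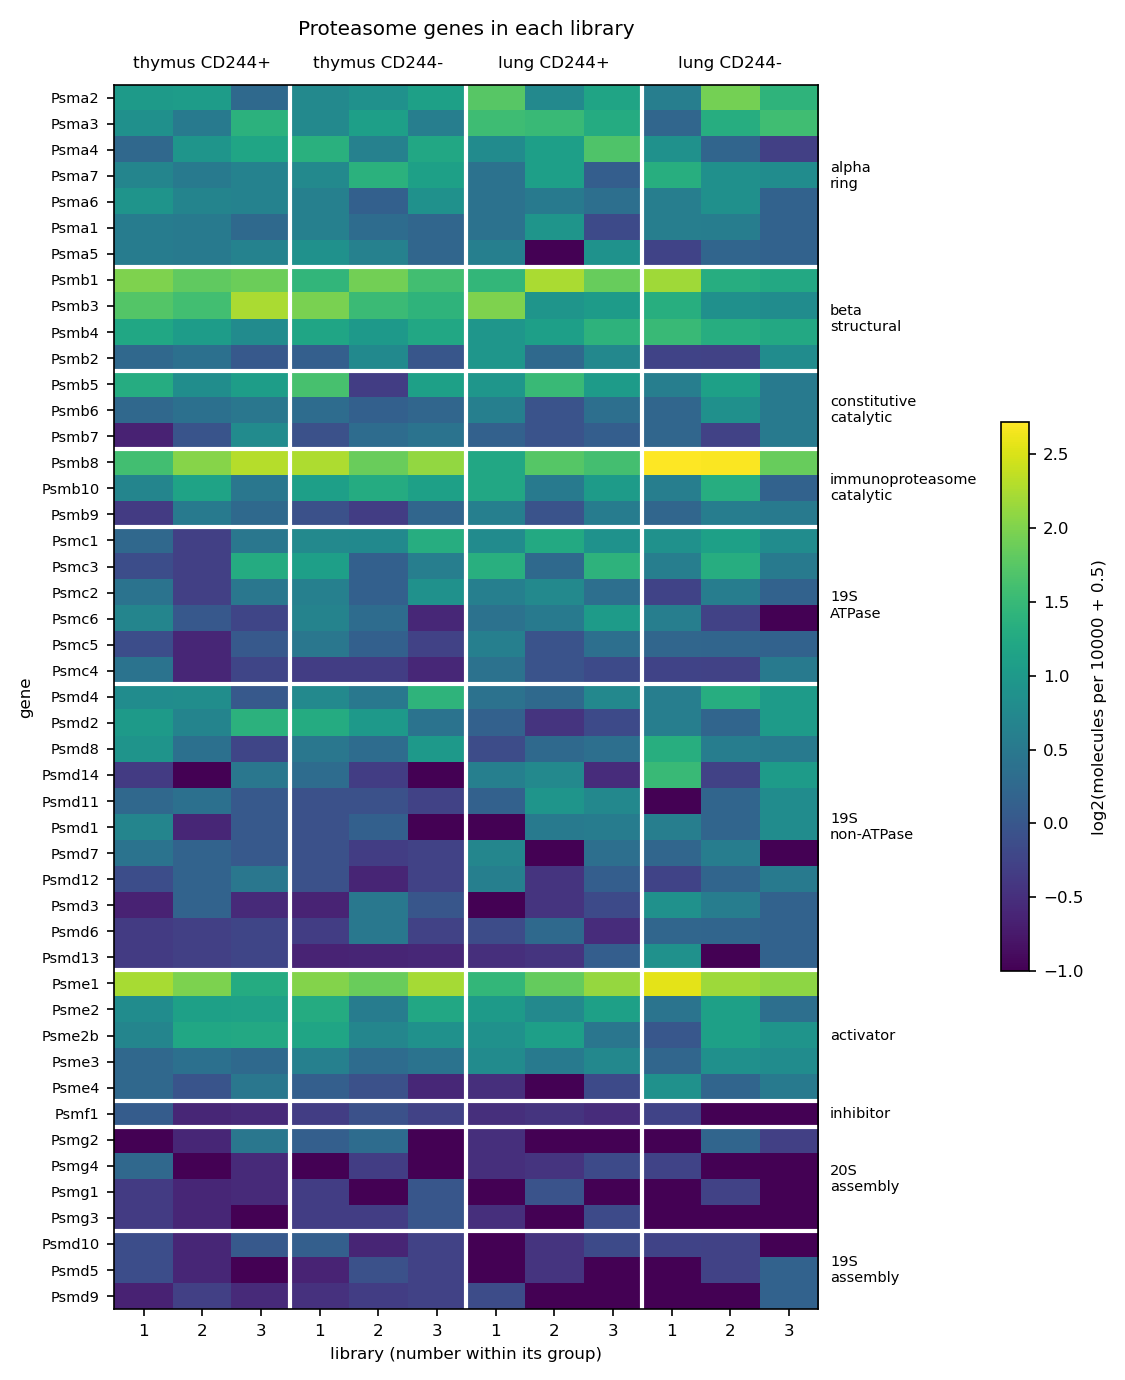
Level of each proteasome gene in each of the 12 libraries, as log2(molecules per 10000 + 0.5), with genes in rows by role and, within a role, by mean level, and libraries in columns by group; the 3 genes with at most 1 molecule in all (Psma8, Psmb11, Psmc3ip) are left out. The brightest rows are Psmb8 and Psme1, and the darkest cells, at -1, are libraries with no molecule, mostly in the chaperone rows.

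The catalytic genes were examined as replacement pairs. Psmb8 stood above its constitutive counterpart Psmb5 in all 12 libraries. In thymus CD244+ libraries Psmb8 was at 2.51, 3.63 and 4.42 per 10000, and in thymus CD244- libraries at 4.30, 3.14 and 3.83. Lung CD244+ libraries had 1.84, 2.82 and 2.53, and lung CD244- libraries 6.06, 5.97 and 3.11. The thymus groups overlapped, and the lung groups did not, the highest CD244+ library lying just under the lowest CD244- library. Psmb5 was lower, at 1.60 ± 0.345, 1.52 ± 1.15, 1.78 ± 0.499 and 1.20 ± 0.399 in thymus CD244+, thymus CD244-, lung CD244+ and lung CD244- cells (SD, n = 3), and all groups overlapped.

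Psmb6, which encodes the caspase-like subunit, and Psmb9, which replaces it, were the most even pair. Psmb6 was at 0.789 ± 0.0933, 0.668 ± 0.0714, 0.757 ± 0.277 and 0.977 ± 0.329 per 10000 in the same order of groups. Psmb9 was at 0.644 ± 0.338, 0.470 ± 0.184, 0.822 ± 0.306 and 0.867 ± 0.17. In the trypsin-like pair, Psmb10 exceeded Psmb7 in the mean of every group, with 1.24 ± 0.440, 1.75 ± 0.173, 1.45 ± 0.461 and 1.21 ± 0.706 for Psmb10 against 0.616 ± 0.562, 0.675 ± 0.204, 0.556 ± 0.0756 and 0.646 ± 0.301 for Psmb7. These 4 genes had 1 to 13 molecules in a library, and none passed the test in any comparison.

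**Figure D3:**
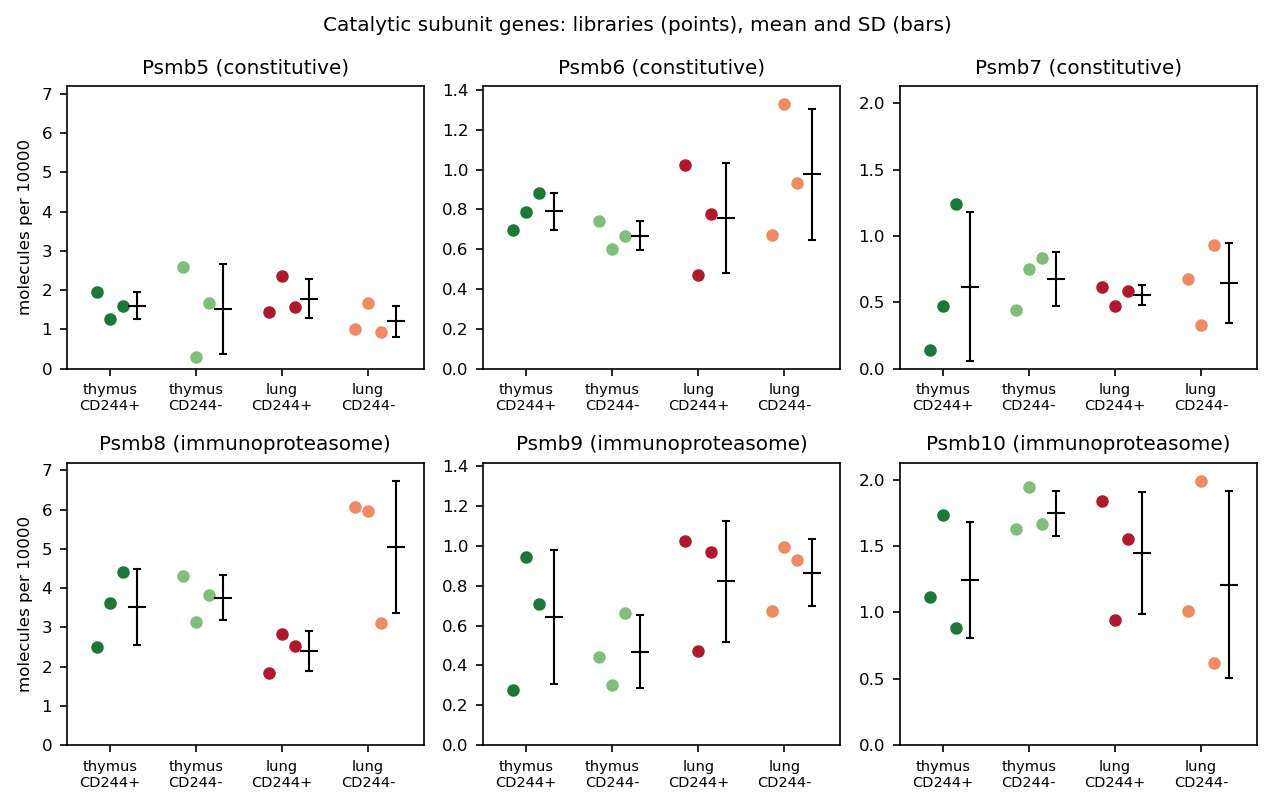
Molecules per 10000 of the constitutive catalytic genes (upper row) and of the immunoproteasome gene that replaces each (lower row, same vertical scale within a column) in the 4 groups, with points for libraries and bars for the mean and SD. Psmb8 in lung CD244+ libraries (1.84 to 2.82) lies below lung CD244- libraries (3.11 to 6.06), and the other 5 genes overlap between the lung groups.

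Expressed as a share of the molecules of all 6 catalytic genes, the immunoproteasome genes made up 63.9 ± 6.78% in thymus CD244+, 68.5 ± 7.22% in thymus CD244-, 60.1 ± 3.6% in lung CD244+ and 70.7 ± 7.35% in lung CD244- cells (SD, n = 3). Single libraries ran from 56.3% to 76.7%, and the 2 lung groups overlapped slightly, at 56.3% to 63.4% against 62.5% to 76.7%. Since a share compares genes within a library, it does not depend on how libraries are scaled. The share of Psmb8 among Psmb8 and Psmb5 molecules was 54.5% to 61.9% in lung CD244+ libraries and 76.9% to 85.7% in lung CD244- libraries, with pooled exact 95% intervals of 44.1% to 70.4% (34 of 59 molecules) and 68.1% to 90.0% (46 of 57), which overlap slightly. The lung libraries did not overlap in this share, which depends on Psmb5 as well as on Psmb8. The thymus libraries spread over 56.3% to 91.3% and did not separate by CD244. For Psmb9 with Psmb6 and for Psmb10 with Psmb7, the pooled intervals of all 4 groups overlapped.

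**Figure D4:**
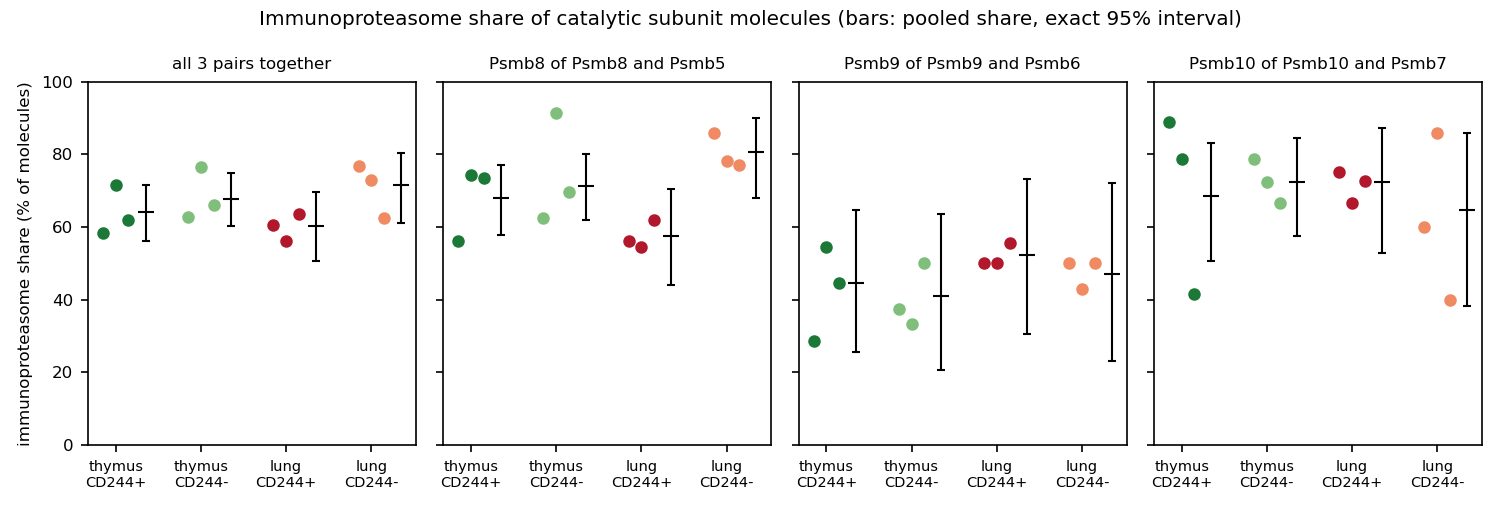
Share of immunoproteasome molecules, in percent, among all 6 catalytic genes and within each replacement pair, with points for libraries and bars for the pooled share of a group with its exact 95% interval. For Psmb8 with Psmb5, lung CD244+ libraries lie at 54.5% to 61.9% and lung CD244- libraries at 76.9% to 85.7%; in the other pairs the 2 lung groups overlap.

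CD244+ and CD244- cells of the lung differed in few proteasome genes. Psmb8 and Psme4 were lower in CD244+ cells, and no proteasome gene was higher. These were 2 of 40 tested members at a limma adjusted p (Benjamini-Hochberg) below 0.05, beside a background of 11% of all 4577 tested genes, 3.95% of them in the lower direction. At an unadjusted limma p below 0.05 there were 6 members, beside 23% of all genes. In edgeR, 0 of the 10 members with enough molecules were called, beside 14.9% of genes, and 2 had an unadjusted p below 0.05, beside 27.2%. The median log2 fold change of the members was -0.06 and that of all tested genes was -0.00. The groups did not overlap for 5 members (Psmb8, Psme4, Psmd2, Psmd3 and Psmd8), beside 22.3% of all genes.

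Psmb8 fell by 0.90 on the log2 scale in lung CD244+ relative to CD244- cells (SE 0.27, 95% interval -1.45 to -0.35, limma adjusted p = 0.0210). The libraries held 9, 12 and 13 Psmb8 molecules in CD244+ and 18, 18 and 10 in CD244- cells, a ratio of shares of 0.476 (95% interval 0.297 to 0.758). Of the CD244+ libraries, library 1 had the lowest Psmb8 level, together with the lowest myeloid sum (65.2) and the highest T cell sum (20.5). Counts of 9, 12 and 13 are too small to order these libraries, and a relation between Psmb8 and the marker sums was not tested. The call rested on single libraries: without lung CD244+ library 1, lung CD244- library 1 or lung CD244- library 2 the limma adjusted p was 0.112, 0.109 or 0.10. It was also lost with only the lung libraries in the fit (0.0551), with sample quality weights (0.0705) and in edgeR on recovered molecules (0.0644), within a range of 0.00283 to 0.112 over 23 alternatives.

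Psme4 encodes PA200, a nuclear cap known for the breakdown of acetylated histones. Its libraries held 1, 0 and 2 molecules in lung CD244+ and 4, 2 and 3 in lung CD244- cells, or 0.205, 0 and 0.389 against 1.35, 0.663 and 0.932 per 10000. It fell by 1.10 on the log2 scale (SE 0.37, limma adjusted p = 0.0440), and the ratio of shares was 0.215 (95% interval 0.0374 to 0.861). The groups were separate, but on 12 molecules in all. The call was lost on leaving out any library other than lung CD244- library 2 (limma adjusted p from 0.0511 to 0.25 when lost, 0.0305 when kept), and under 5 of 9 other settings, where it ranged from 0.0311 to 0.137.

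Members that missed the threshold in lung included Psmd3, a scaffold subunit of the cap's lid, whose log2 fold change was -1.08 (SE 0.38) at a limma adjusted p of 0.0560, on 3 molecules in CD244+ and 9 in CD244- libraries. Psmd3 passed with quantile normalization (0.0412), with a pseudocount of 2 (0.0440) and without lung CD244- library 3 (0.0359). In the other direction, the alpha ring gene Psma4 had a log2 fold change of 0.93 (limma adjusted p = 0.0883) and the cap ATPase gene Psmc6 one of 0.88 (0.163). Both passed without lung CD244- library 1, at 0.0269 and 0.0353. Psmd2, Psmd11 and Psmb2 had log2 fold changes of -0.77, 0.60 and 0.56, with limma adjusted p of 0.178, 0.378 and 0.401.

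**Figure D5:**
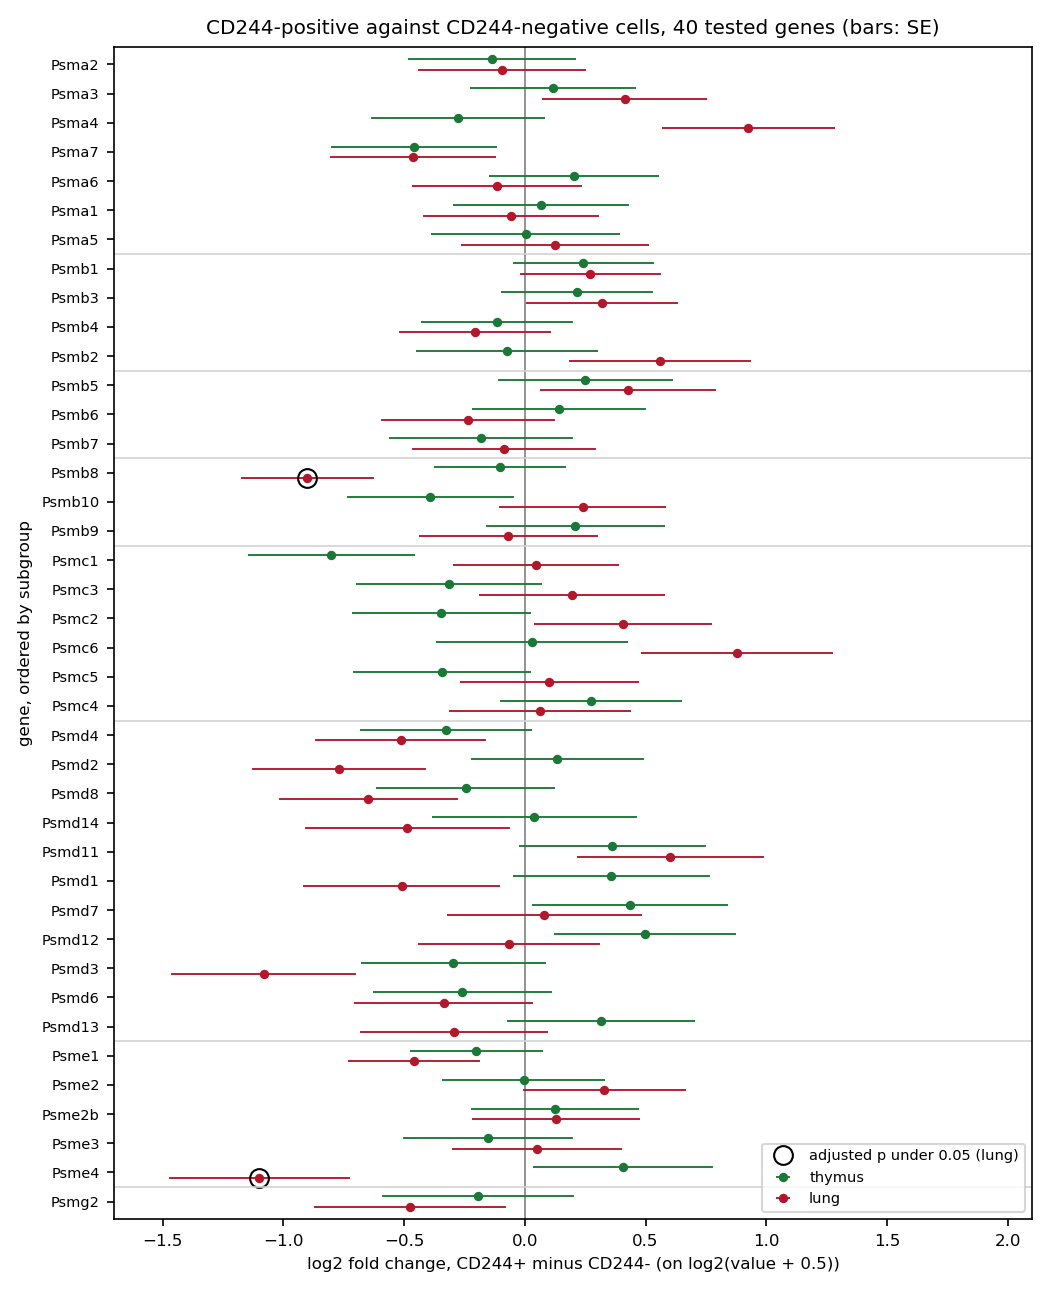
Log2 fold change of CD244+ against CD244- cells for the 40 tested proteasome genes in thymus (green) and lung (red), on log2(molecules per 10000 + 0.5), with SE as bars and genes grouped by role. The ringed points, Psmb8 at -0.90 and Psme4 at -1.10 in lung, are the members with a limma adjusted p below 0.05; no thymus point is ringed.

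In the thymus, CD244+ and CD244- cells gave no called member. None of 40 had a limma adjusted p below 0.05, beside 0.328% of all genes, and 1 had an unadjusted p below 0.05, beside 4.26%. In edgeR, 0 of the 10 members with enough molecules were called, beside 1.04% of genes, with 0 at an unadjusted p below 0.05, beside 7.2%. The member with the smallest p was Psmc1, a cap ATPase gene, at 0.696, 0.315 and 0.883 per 10000 in CD244+ against 1.19, 1.20 and 2.0 in CD244- libraries. Its groups did not overlap, and its log2 fold change of -0.80 (SE 0.34) had an unadjusted limma p of 0.0236 and an adjusted p of 1. Psma7 at -0.46 and Psmd7 and Psmd11 at 0.44 and 0.36 also had separate groups, with an adjusted p of 1. Such separation was seen for 5 of 40 members, beside 11.9% of all genes. The immunoproteasome genes had log2 fold changes of -0.10 for Psmb8 (95% interval -0.65 to 0.45), 0.21 for Psmb9 (-0.53 to 0.95) and -0.39 for Psmb10 (-1.08 to 0.30).

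Whether the CD244 difference itself changed between tissues was tested with the interaction term. No member was called in limma, beside 4.24% of all genes, and 3 had an unadjusted p below 0.05, beside 13.9%. Those 3 were Psme4 at -1.51 (limma adjusted p = 0.105), Psma4 at 1.20 (0.231) and Psmb8 at -0.80 (0.336). The lower Psmb8 and Psme4 levels of lung CD244+ cells were therefore not shown to be particular to lung. In edgeR, 0 of 10 members were called, beside 1.91% of genes, and 1 had an unadjusted p below 0.05, beside 13.5%.

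Lung and thymus were then compared within each subset. In CD244+ cells, Psmd2 was lower in lung, the only call among 40 members in limma, beside 12.3% of all genes (4.5% lower). In edgeR, 0 of 10 members were called, beside 25.4% of genes, and none had an unadjusted p below 0.05, beside 33.6%; Psmd2 was not among the 10. Psmd2 encodes a large scaffold of the cap's base that docks ubiquitin-binding shuttle proteins. It was at 1.53, 1.10 and 2.12 per 10000 in thymus CD244+ libraries and at 0.614, 0.235 and 0.389 in lung CD244+ libraries. The groups were clearly apart, on 30 and 6 molecules, with a ratio of shares of 0.269 (95% interval 0.0914 to 0.656). The fall was 1.18 on the log2 scale (SE 0.36, limma adjusted p = 0.0173). It was lost without thymus CD244+ library 1 (0.0575) or 3 (0.123) or lung CD244+ library 2 (0.110) or 3 (0.0565), within 0.00124 to 0.123 over 21 alternatives. Thymus CD244- cells held Psmd2 at 1.42 ± 0.552 and lung CD244- cells at 1.08 ± 0.448, so lung CD244+ cells were the lowest group.

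Other members in that comparison stayed short of the threshold, 3 having an unadjusted limma p below 0.05 with Psmd2 among them, beside 22.5% of all genes. Groups did not overlap for 5 (Psma6, Psmc1, Psmd2, Psme3 and Psme4), beside 27.7%. Psmc1 had a log2 fold change of 0.83 (limma adjusted p = 0.113), with lung CD244+ libraries at 1.23, 1.88 and 1.36 per 10000 above thymus CD244+ libraries. Psme4 was at -0.79 (0.192), Psmc3 at 0.72 (0.276), Psmc5 at 0.53 (0.440) and Psma3 at 0.53 (0.40). Psmb8 was at -0.46 (0.345) and Psmb3 at -0.53 (0.337); on the deposited scale both were called lower with Psmd2, at 0.0193 and 0.0307. That scale lowers lung values of all genes, though low genes less on the log2 scale, since 1 was added before the log. The median log2 fold change over all tested genes was -0.27 in CD244+ and -0.29 in CD244- cells. The median of the members was 0.00 after rescaling, as was that of all genes.

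In CD244- cells, 0 of 40 members were called between lung and thymus in limma, beside 6.88% of all genes, with 4 at an unadjusted p below 0.05, beside 18.7%. In edgeR 0 of 10 were called, beside 18.8% of genes, and 1 had an unadjusted p below 0.05, beside 29.1%. Groups did not overlap for 7 members (Psma5, Psmb3, Psmb4, Psmb9, Psmc4, Psmd1 and Psme4), beside 21.4% of all genes. Psmd14, which encodes the deubiquitinase of the cap's lid, had a log2 fold change of 1.10 (SE 0.42), the largest among the 40, at a limma adjusted p of 0.118. Its lung CD244- libraries were at 2.36, 0.332 and 1.55 per 10000 and its thymus CD244- libraries at 0.741, 0.299 and 0, so the groups overlapped through lung library 2, without which the adjusted p was 0.0168. Psmd1 and Psme4 had log2 fold changes of 0.85 (0.237) and 0.72 (0.295). Psma4 was at -0.80 (0.199) and Psmb3 at -0.64 (0.259), and both were called on the deposited scale, at 0.0256 and 0.0210.

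The cap subunits were summed as ATPases and as the rest. The 11 non-ATPase genes (Psmd1 to Psmd4, Psmd6 to Psmd8 and Psmd11 to Psmd14) summed to 11.8, 8.62 and 10.9 per 10000 in lung CD244- libraries. In lung CD244+ libraries the sum was 6.24, 6.59 and 7.19, and in thymus libraries it was 6.49 to 8.22. Lung CD244- cells thus stood above the 9 other libraries, by a margin that was small for library 2. With the unequal deposited totals kept, per 10000 of their mean, the sum was 7.22 to 9.86 in lung CD244- and 7.55 to 9.56 in thymus libraries, which overlap, and 5.22 to 6.02 in lung CD244+ libraries, still lower. Singly, 9 of the 11 genes had a log2 fold change below 0 in lung CD244+ against CD244- cells, beside 2304 of 4577 genes, with a median of -0.49 against -0.00. None of the 11 was called, and 2 (Psmd2 and Psmd3) had an unadjusted limma p below 0.05.

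The 6 cap ATPase genes, Psmc1 to Psmc6, summed to 6.96, 5.64 and 7.0 per 10000 in lung CD244+ libraries and to 4.71, 5.97 and 4.35 in lung CD244- libraries, and the groups overlapped. Thymus CD244+ libraries had 4.32, 1.77 and 4.95, and thymus CD244- libraries 6.11, 4.04 and 4.99. All 6 had a log2 fold change above 0 in lung CD244+ against CD244- cells, with a median of 0.15. Under quantile normalization 5 of 6 did so. With any 1 lung library left out, 5 of 6 or 4 of 5 tested genes did so. None was called, and 1 (Psmc6) had an unadjusted limma p below 0.05. These counts come from the same libraries as the sums and are no second measurement, and the difference between the ATPase and the other cap genes was not tested.

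Barrel genes outside the catalytic set had summed levels of similar size in the 4 groups after rescaling. Single genes varied more, as did Psma4 (1.87 in lung CD244+ and 0.774 in lung CD244- cells). The alpha ring summed to 8.12 ± 0.314 per 10000 in thymus CD244+, 8.79 ± 0.259 in thymus CD244-, 9.58 ± 0.431 in lung CD244+ and 8.59 ± 1.5 in lung CD244- cells (SD, n = 3). Lung CD244+ libraries, at 9.17 to 10.03, lay above all thymus libraries, at 7.88 to 9.04, and within the range of lung CD244- libraries. With the unequal deposited totals kept, per 10000 of their mean, that order turned, with 7.67 to 8.39 in lung CD244+ and 9.17 to 10.5 in thymus libraries. The structural beta genes summed to 8.61 ± 0.666, 7.79 ± 0.719, 8.19 ± 0.354 and 6.87 ± 1.66, where lung CD244- libraries ran from 5.64 to 8.76 and overlapped every other group. Of these 11 genes, none was called in any of the 5 comparisons in limma after rescaling, and those with an unadjusted p below 0.05 were Psma4 in 3 comparisons and Psmb3 in 1.

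The activators showed one call, that of Psme4. Psme1 and Psme2 encode the PA28 ring that is induced with the immunoproteasome. Psme1 was at 3.2 ± 1.14, 3.62 ± 0.512, 3.07 ± 0.818 and 4.37 ± 0.895 per 10000 in thymus CD244+, thymus CD244-, lung CD244+ and lung CD244- cells, and its lung CD244 log2 fold change was -0.46 (limma adjusted p = 0.332). Psme2 is listed with Psme2b, a retrotransposed copy, and 7 of the 12 values of each were fractions of a molecule, as when reads are divided between 2 like genes, so their separate levels are uncertain. Together they came to 3.12 ± 0.655, 2.99 ± 0.820, 2.74 ± 0.184 and 2.28 ± 0.989, with overlap throughout. Psme3, the nuclear PA28 gamma gene, was at 0.730 ± 0.0503, 0.872 ± 0.149, 1.11 ± 0.151 and 1.08 ± 0.355. Its lung CD244+ libraries (0.941 to 1.23) lay above the thymus CD244+ libraries (0.696 to 0.788), with a log2 fold change of 0.39 (limma adjusted p = 0.591).

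The inhibitor gene Psmf1 had 17 molecules in all, 6, 7, 3 and 1 in the 4 groups, and levels of 0 to 0.557 per 10000. The 20S assembly chaperone genes together had 19, 23, 10 and 5 molecules, or 0.988 ± 0.446, 1.18 ± 0.174, 0.699 ± 0.0820 and 0.548 ± 0.388 per 10000 in the same order. The 19S assembly chaperone genes had 15, 18.5, 6 and 7 molecules. The 19S assembly sum was 0.389 to 0.470 per 10000 in lung CD244+ libraries, below the thymus libraries at 0.631 to 0.998, while lung CD244- libraries spread over 0.337 to 1.24. The 20S assembly sum was 0.614 to 0.778 in lung CD244+ libraries, below thymus CD244- at 0.998 to 1.35 and inside the range of thymus CD244+ libraries. These sums rest on 5 to 23 molecules per group and were not tested. Psmg2, the 1 chaperone gene tested, was not called in any comparison.

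Genes that act with the proteasome were read from lists outside the symbol rule. Of 10 partner genes in the table, 9 were tested (among them Pomp, Adrm1, Sem1, Uchl5 and Usp14), and none was called in any of the 5 comparisons in limma. These were thymus CD244, lung CD244, lung against thymus in CD244+, the same in CD244-, and the interaction. Of all genes, 0.328%, 11%, 12.3%, 6.88% and 4.24% were called there. Unadjusted limma p was below 0.05 for 0, 0, 2, 1 and 0 of the 9, beside 4.26%, 23%, 22.5%, 18.7% and 13.9% of all genes. In edgeR 1 of the 9 had enough molecules, and it was called in none. The smallest p belonged to Zfand5, which encodes a zinc finger protein that stimulates the 26S proteasome, with a log2 fold change of 0.98 in lung against thymus CD244+ cells (limma adjusted p = 0.0748). Zfand2a, which encodes an arsenite-inducible relative, was at 0.81 (0.174) in CD244+ and 0.90 (0.158) in CD244- cells.

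Of the 12 genes of class I peptide loading, 11 were tested. In lung CD244+ against CD244- cells, 1 was called higher and 1 lower in limma, beside 11% of all genes called. Canx, the chaperone calnexin, rose by 1.05 on the log2 scale (limma adjusted p = 0.0199). H2-K1, a class I heavy chain gene, fell by 0.62 (0.00176), from 24.8 ± 3.75 to 15.9 ± 2.0 per 10000, while its relative H2-D1 and the light chain gene B2m were not called; reads shared among class I genes can make such values uncertain. Tap1 and Tap2, the peptide transporter genes next to Psmb8 and Psmb9, missed the threshold, with log2 fold changes of -0.83 (0.134) and -1.09 (0.0578). In each the lung groups did not overlap, which held for 5 of the 11 genes and for 22.3% of all genes. In lung against thymus CD244+ cells limma called 1 gene of the list, beside 12.3% of all genes. It was Calr, higher in lung by 0.93 on the log2 scale (limma adjusted p = 0.0201). No gene of the list was called in limma in thymus CD244, in lung against thymus CD244- cells or in the interaction. The limma shares of all genes called there were 0.328%, 6.88% and 4.24%. In edgeR, 7 genes of the list had enough molecules. It called 2 in lung CD244 and 3 in lung against thymus CD244+ cells, beside 14.9% and 25.4% of genes, and 0 in the other comparisons.

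Of 10 interferon gamma response genes and regulators, 9 were tested. In CD244+ against CD244- cells, 1 was called higher in thymus, beside 0.328% of all genes. In lung, 1 was called higher and 1 lower, beside 11%. In edgeR, 6 genes of the list had enough molecules, and none was called by CD244 in thymus or lung or in the interaction. Unadjusted edgeR p was below 0.05 for 2, 0 and 1 of them. Between tissues, edgeR called 1 in CD244+ and 2 in CD244- cells, beside 25.4% and 18.8% of genes. Ifngr1, an interferon gamma receptor chain, rose by 0.82 in thymus CD244+ cells (limma adjusted p = 0.0410), and was higher in lung than in thymus by 0.64 in CD244+ (0.0213) and 1.82 in CD244- cells (2.76e-10). Its CD244 effect differed between tissues (interaction -1.18, 0.00510). In lung, Jak1 was lower in CD244+ cells by -0.74 (0.0132), and Irf8, a factor of myeloid and B cells, had 16 molecules in CD244+ and 0 in CD244- libraries (0.00173). It had 6 and 11 molecules in thymus CD244+ and CD244- libraries, and was also called in the interaction (0.0154). Socs1 was lower in lung than in thymus CD244+ cells by -1.38 (0.00690). Irf1, which drives immunoproteasome genes, was called in none, with levels of 2.31 ± 0.512, 1.67 ± 0.822, 1.34 ± 0.338 and 1.86 ± 0.437 per 10000.

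Of 8 genes known to control proteasome transcription, 5 were tested. Nfe2l2, the stress factor NRF2, was at 3.12 ± 0.475 per 10000 in lung CD244+ and 0.867 ± 0.17 in lung CD244- cells, a rise of 1.40 on the log2 scale (limma adjusted p = 0.00323). It was also above thymus CD244+ cells, by 1.77 (9.42e-05). Ngly1, which activates NRF1, had 13 molecules in thymus CD244- and 0 in lung CD244- libraries (0.0468). Nfe2l1, the NRF1 gene, had 2 to 10 molecules per group and was too low to be tested.

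Of 15 genes for ubiquitin, its activation, shuttles and unfoldase, 11 were tested, and none was called by CD244 in either tissue. Of all genes, 0.328% were called in thymus and 11% in lung. An unadjusted limma p below 0.05 was seen for 1 of the 11 in each tissue, beside 4.26% and 23% of all genes. Between tissues, Rps27a, which encodes a ubiquitin fused to a ribosomal protein, was lower in lung than in thymus CD244+ cells by -0.54 (limma adjusted p = 0.00208). Ubqln1, a shuttle gene, was higher in lung than in thymus CD244+ cells by 1.14 (0.0337). Median log2 fold changes of the 5 lists in lung CD244+ against CD244- cells were 0.22 for partners, 0.00 for class I loading, -0.34 for interferon genes, 0.76 for transcriptional control and 0.00 for ubiquitin, beside -0.00 for all genes.

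Members were spread over 16 chromosomes of the mm10 build, with all 50 found in GENCODE M21, and 3 pairs lay within 50 kb of each other. Psmb8 (chr17:34197721-34201454, plus strand) and Psmb9 (chr17:34181987-34187764, minus strand) are 9957 bases apart in the MHC, with Tap1 between them. Psme1 and Psme2 are 5912 bases apart on chromosome 14, and Psmb5 (chr14:54614119-54618022, minus strand) lies 3411 bases from Psmb11, which had no molecule. The third immunoproteasome gene, Psmb10 (chr8:105935735-105938444, minus strand), has no member near it. In the lung comparison the neighbours Psmb8 and Psmb9 had log2 fold changes of -0.90 (95% interval -1.45 to -0.35) and -0.07 (-0.81 to 0.67). These intervals overlap, and the difference between the genes was not tested.

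Promoters of RefSeq (GRCm38.p6, from 250 bases before to 50 after the start) were found for 42 of the 50 members and read on both strands for 4 motifs. The interferon regulatory factor element, GAAA and GAAA with 2 free bases between, was in 5 of 42 member promoters (11.9%) and in 3.99% of all 27025 genes' promoters. Those 5 were Psmb3, Psmd4, Psmd9, Psme1 and Psmg4, with no immunoproteasome gene among them. The STAT element TTCNNNGAA was in 3 (7.14%) against 9.55%, the antioxidant response core TGACNNNGC, which NRF1 and NRF2 bind, in 6 (14.3%) against 14.0%, and the CCAAT box in 15 (35.7%) against 41.1%. A match describes letters only and is no evidence of binding. The windows below belong to the 3 members called in a comparison and to the constitutive counterpart of Psmb8. Capitals mark the STAT element in Psmb8 and Psmd2 and the antioxidant core, on either strand, in Psme4 and Psmb5.
Psmb8: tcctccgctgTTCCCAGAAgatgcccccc
Psme4: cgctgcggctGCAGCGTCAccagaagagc
Psmd2: gcgcgtggccTTCTGGGAAaaggggcggt
Psmb5: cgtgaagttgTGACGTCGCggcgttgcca
They lie at chr17:34198088-34198116 (plus strand), chr11:30771758-30771786 (plus), chr16:20651646-20651674 (plus) and chr14:54618024-54618052 (minus), with the match beginning at -97, -7, 4 and -47 from the RefSeq start. The Psmb8 window falls inside the Psmb8 gene of GENCODE (chr17:34197721-34201454, plus strand), after its start there.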

How the data were processed

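The authors deposited 1 table of signal values, with 1 column per library, counted from molecular barcodes per the labels' protocols. Reads were mapped with STAR to mm10, per the submitters' processing notes. The counting step, annotation and scaling formula were not given in the sources used here. Values were whole multiples of a constant of each library for 93.6% to 95.7% of genes (tolerance 1e-06), which gave molecules per library. ERCC spike-in RNA was added to each tube for normalization per the labels' protocols, and the table lists 0 ERCC rows, so whether the column totals follow it was not tested. Thymus and lung columns have different totals, so each library was rescaled to 10000. Genes above 0.5 in at least 3 of 12 libraries (4577, 40 of them members) were tested on log2(value + 0.5), a scale that understates the changes of low genes. One limma 3.58.1 model (trend and robust, R 4.3.3) with 4 groups gave 5 comparisons, two-sided, Benjamini-Hochberg over all tested genes, threshold 0.05. With 3 libraries in each group, the smallest p of an exact permutation test is 0.1. Replicate numbers were not used as pairs. The 18 same-number correlations of deviations from the group means were -0.0337 to 0.0173, and other correlations were -0.0416 to 0.0346. With few molecules per gene, such correlations can lie near 0 for paired libraries too, so they cannot decide whether libraries were paired. edgeR 4.0.16 (quasi-likelihood) was run on rounded molecules of the 9 libraries whose smallest value is 1 whole molecule (1152 genes). Scripts were tested on simulated data. Named members were those called, the catalytic, activator, inhibitor and tissue-restricted genes, and up to 4 per direction and comparison with the smallest p; of each pathway list, those called or up to 2 with the smallest p, and not all are printed. Members and lists were chosen with earlier results of these data known. Some genes of the pathway lists are not reported here.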

Additional observations from a re-analysis of the deposited data

How the results depend on the processing

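Calls among the members rest on few molecules and change with the settings. In lung CD244+ against CD244- cells the 2 calls became 1 on the deposited scale, with median-ratio size factors, with no filter and with a filter above 2, and 0 with only the lung libraries, with sample quality weights and in edgeR (limma for the rest); they became 3, with Psmd3, under quantile normalization and a pseudocount of 2. In lung against thymus CD244+ cells the 1 call became 3 on the deposited scale and 0 with the filter above 2 and in edgeR, both of which leave Psmd2 untested; in CD244- cells 0 became 2 on the deposited scale. Leaving out each library gave 0 to 0, 0 to 2, 0 to 1, 0 to 1 and 0 to 0 members called in thymus CD244, lung CD244, lung against thymus in CD244+, in CD244- and the interaction. The cause was not tested beyond what these settings change. With a replicate block the members called were 0, 2, 1, 0 and 0, as without it, and it changed no other call. Of the 12 libraries, 3 correlated best with their own number, which cannot decide whether the numbers pair libraries. Summed levels of all members with the unequal deposited totals kept, per 10000 of their mean, were 53.5, 55.5, 39.5 and 42.6, with 46.8 in lung CD244- under median-ratio factors; without single libraries they were 44.6 to 47.7, 45.6 to 49.6, 46.3 to 48.2 and 49.6 to 53.1. The immunoproteasome sum on that scale was 6.94 in thymus CD244- and 3.90 in lung CD244+ cells. The mean of the 3 pairwise shares in lung CD244- was 63.3%, against 70.7% for the 6 catalytic genes together. Mean shares of Psmb8, Psmb9 and Psmb10 in their pairs were 80.3%, 47.6% and 61.9% in lung CD244- cells. In lung CD244+ cells they were 57.6%, 51.9% and 71.5%, so only the Psmb8 pair had a lower mean there.

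Of 80 results of the named members, 69 kept their side of the threshold under every alternative run, and none reversed a called direction. The 69 were all uncalled in the main fit. Every called result was among the 11 that changed: Psmb8 and Psme4 in lung CD244 were lost under 6 and 16 alternatives. Psmd2 in lung against thymus CD244+ cells was lost under 4. Genes called in the whole table numbered 15 in thymus CD244 (33 with only those libraries, 34 with weights), 505 in lung CD244 (272 with the filter above 2, 172 in edgeR), 563 in lung against thymus CD244+ (365 and 293), 315 in CD244- (550 on the deposited scale) and 194 for the interaction (115 and 22). Without 1 lung CD244+ library, lung CD244 calls were 318, 230 or 214 and interaction calls 89, 57 or 48. Higher against lower calls moved from 324 and 181 to 381 and 124 under median-ratio factors in lung CD244, and on the deposited scale from 357 and 206 to 271 and 494, and from 164 and 151 to 112 and 438, between tissues.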
